A study of Mus musculus with 39 samples.

Results

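The 38 genes described here encode the proteins that form and dissolve blood clots: fibrinogen and its cross-linker, clotting enzymes and their cofactors, the contact system, the anticoagulants, the fibrinolytic system, 2 further plasma proteins and the enzymes of the vitamin K cycle. They were chosen by name from the 55416 genes of a table of RNA sequencing counts, and all 38 were found in it and tested. Liver RNA came from 39 male mice, each with its own library. They carried the knockout allele CD163tm1(KOMP)Vlcg on the C57BL/6NTac background or were wildtype littermates, all born to heterozygous parents, and the labels name no Cre driver that would confine the deletion to a cell type. On macrophages CD163 binds complexes of haemoglobin and haptoglobin and clears them. From an age of 6 weeks the mice ate a Western diet and drank water with fructose, or ate chow and drank plain water, for 8 weeks. The 4 groups held 5 wildtype and 4 knockout mice on chow, and 15 wildtype and 15 knockout mice on Western diet. The comparisons ask how these genes differ between genotypes on each diet, between diets in each genotype, and whether the response to diet differs between genotypes.

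Most plasma clotting proteins are made by hepatocytes. Tissue factor starts a cascade in which factors VII, IX, X and prothrombin are activated in turn, thrombin cuts fibrinogen to fibrin, and factor XIII links the fibrin strands. Factors II, VII, IX and X and the proteins C, S and Z need vitamin K for the carboxylation that lets them bind membranes. Antithrombin, heparin cofactor II, the protein C pathway and tissue factor pathway inhibitor hold the cascade in check, and plasmin, made from plasminogen, dissolves fibrin. The fibrinogen chains are known as acute phase proteins, which the liver makes in larger amounts in inflammation.

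The promoters below belong to the members on which the results turn: the 3 fibrinogen chains, which hold the largest share of the counts of the members, and F9 and Klkb1, which were called between diets. RefSeq (assembly GRCm38.p6) gave a promoter for 30 of the 38 members, and the 250 bases before each start site were searched on both strands for 4 motifs. They were the HNF1 motif GTTAATNAT, the C/EBP motif TTGCNNAA, the interleukin 6 response motif CTGGGAA and the HNF4 motif CAAAGTCCA. The HNF1, C/EBP and HNF4 motifs are named for factors known from liver promoters, and the interleukin 6 motif for the response to that cytokine. Capitals mark the matches, and no match in these 5 windows overlapped another.
Fga (chr3:83025903-83026152, plus strand): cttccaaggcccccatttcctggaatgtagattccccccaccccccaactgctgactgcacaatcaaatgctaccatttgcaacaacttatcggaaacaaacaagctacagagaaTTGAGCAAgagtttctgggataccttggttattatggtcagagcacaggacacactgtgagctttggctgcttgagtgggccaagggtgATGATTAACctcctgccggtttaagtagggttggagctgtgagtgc
Fgb (chr3:83049864-83050113, minus strand): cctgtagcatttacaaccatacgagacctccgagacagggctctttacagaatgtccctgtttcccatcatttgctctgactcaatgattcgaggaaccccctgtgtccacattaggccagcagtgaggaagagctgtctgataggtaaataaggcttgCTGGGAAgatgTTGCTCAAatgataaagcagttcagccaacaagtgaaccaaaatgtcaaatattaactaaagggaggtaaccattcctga
Fgg (chr3:83007474-83007723, plus strand): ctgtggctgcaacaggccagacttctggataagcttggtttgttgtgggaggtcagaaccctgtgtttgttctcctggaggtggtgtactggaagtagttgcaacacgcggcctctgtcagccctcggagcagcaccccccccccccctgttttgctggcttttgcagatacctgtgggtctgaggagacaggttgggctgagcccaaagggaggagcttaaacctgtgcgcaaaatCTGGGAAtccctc
F9 (chrX:59999214-59999463, plus strand): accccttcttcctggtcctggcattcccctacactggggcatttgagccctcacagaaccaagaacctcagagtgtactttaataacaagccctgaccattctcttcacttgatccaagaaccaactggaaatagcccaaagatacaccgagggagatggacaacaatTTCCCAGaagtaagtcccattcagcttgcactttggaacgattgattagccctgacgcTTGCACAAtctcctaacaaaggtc
Klkb1 (chr8:45294836-45295085, minus strand): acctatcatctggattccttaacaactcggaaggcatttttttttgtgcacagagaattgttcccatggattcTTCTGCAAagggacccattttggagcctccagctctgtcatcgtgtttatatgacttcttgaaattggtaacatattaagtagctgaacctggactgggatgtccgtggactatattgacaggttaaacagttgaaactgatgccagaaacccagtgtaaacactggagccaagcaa
The Fga window held an HNF1 match 46 to 38 bases before the start site and a C/EBP match 135 to 128 bases before it. In Fgb the interleukin 6 motif lay 91 to 85 bases and the C/EBP motif 80 to 73 bases before the start. In Fgg the interleukin 6 motif lay 13 to 7 bases before the start. F9 held a C/EBP match at 24 to 17 bases and an interleukin 6 match, on the other strand, at 82 to 76 bases before the start, and Klkb1 held a C/EBP match at 177 to 170 bases. Over the 30 members, the C/EBP motif was in 10, the interleukin 6 motif in 4, the HNF1 motif in 3 (F13b, Fga and Habp2) and the HNF4 motif in 0. Among 27025 promoters of the same length these motifs were in 9.55%, 9.08%, 0.781% and 0.381%. A match describes letters in a window and not the binding of a factor. In the same assembly Fgg, Fga and Fgb are direct neighbours on chromosome 3, Hrg, Kng2 and Kng1 on chromosome 16, F7, F10 and Proz on chromosome 8, and F11 and Klkb1 on chromosome 8.

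Depth ran from 8578865 to 30438808 counts (median 14573193 per library), and values are given as CPM, the count of a gene scaled to library size by TMM. The summed levels of gene lists are the exception, scaled to the total count of the library without TMM. The targeted gene Cd163 had 8.31 ± 4.27 CPM (SD, n = 15) in wildtype against 0.355 ± 0.209 CPM (n = 15) in knockout mice under Western diet, and 8.74 ± 3.89 (n = 5) against 0.601 ± 0.138 CPM (n = 4) under chow. An earlier analysis of these counts had named 4 libraries that stand with the other diet. To describe them, 189 genes other than the members were taken that changed at least 2-fold with diet in both genotypes in the fit without those 4, and each library was placed on their mean from 0 (mean of the other chow libraries) to 1 (mean of the other Western diet libraries). The 4 were wildtype A (0.890) and knockout D (0.987) of the chow groups, where 7 others held -0.0886 to 0.0770, and wildtype A (0.161) and knockout M (0.0728) of the Western diet groups, where 28 others held 0.815 to 1.23. The genes were called on these 35 other libraries, so the separation of those is fixed by the choice. They are 1 chow and 1 Western diet library of each genotype. Whether these labels were exchanged was not tested, and each value in 39 libraries rests on the labels as given. The 4 keep their labels in all fits of 39 libraries, and results are also given for the 35 libraries without them. Of all pairs, wildtype L and M under Western diet resembled each other most (chi-square per gene 3.97, next pair 10.4), and both were kept as separate mice. Of 8 hepatocyte markers fixed for the tissue label, 7 matched a tested gene by symbol, with a summed level of 43475 to 78936 CPM over all libraries. The listed symbol Tf matched no tested gene, so nothing is said of its level. Platelet markers summed to 4.42 to 13.4 CPM, with Gp6 at 0 in all wildtype chow libraries and Gp6 and Treml1 at 0 in all knockout chow libraries.

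Per kilobase of merged exons, 29 members stood at 14.5 CPM or more and 9 at 1.69 or less, so the genes fell into an abundant and a scarce class. The 3 fibrinogen chains and Apoh, beta-2-glycoprotein I, led the abundant class. Fgg was at 1804 ± 547 CPM per kilobase (SD, n = 39 libraries), Apoh at 1387 ± 162, Fga at 1342 ± 491 and Fgb at 1059 ± 337. The fibrinogen chains took 1.18% of all counts and 40.9% of the counts of the 38 members. Kng1 (515 ± 66.7 CPM per kilobase), kininogen, Plg (467 ± 114), plasminogen, Hrg (459 ± 71.6), histidine-rich glycoprotein, and F2 (445 ± 47.7), prothrombin, came next, and their means lie within 1 SD of a neighbour. F12 (367 ± 36.8 CPM per kilobase), Serpinf2 (319 ± 61.0), Proc (303 ± 40.3), protein C, and Serpinc1 (264 ± 26.2), antithrombin, followed. This order rests on the merged length of all annotated exons, which is 8546 bases for Serpinc1, 4594 for F2 and 1960 for F12. In CPM without length, Serpinc1 stood at 2275 ± 156 in wildtype mice on Western diet (n = 15). There F2 was at 2153 ± 192 CPM and F12 at 763 ± 54.9 CPM, so the place of Serpinc1 depends on the length used. Kng1 and Kng2 (78.4 ± 10.6 CPM per kilobase) are near-identical copies in mouse, so their separate levels are uncertain. The scarce class held F3, Thbd, Tfpi, Plau, Vwf, F8, Procr, Plat and F13a1. F3, tissue factor, was at 1.69 ± 0.458 CPM per kilobase. F8 was at 0.688 ± 0.177 and Vwf, von Willebrand factor, at 0.975 ± 0.375, and both are genes known from endothelial cells rather than hepatocytes. Plat, tissue plasminogen activator, rested on 6 to 96 counts per library and F13a1, the A subunit of factor XIII known from macrophages and platelets, on 0 to 22, with 0 counts in 4 libraries. In wildtype mice on Western diet the coefficient of variation had a median of 15.0% in the abundant and 38.9% in the scarce class, and within the abundant class Serpina10 (46.0%) varied most and Serpinc1 (6.85%) least.

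**Figure D1:**
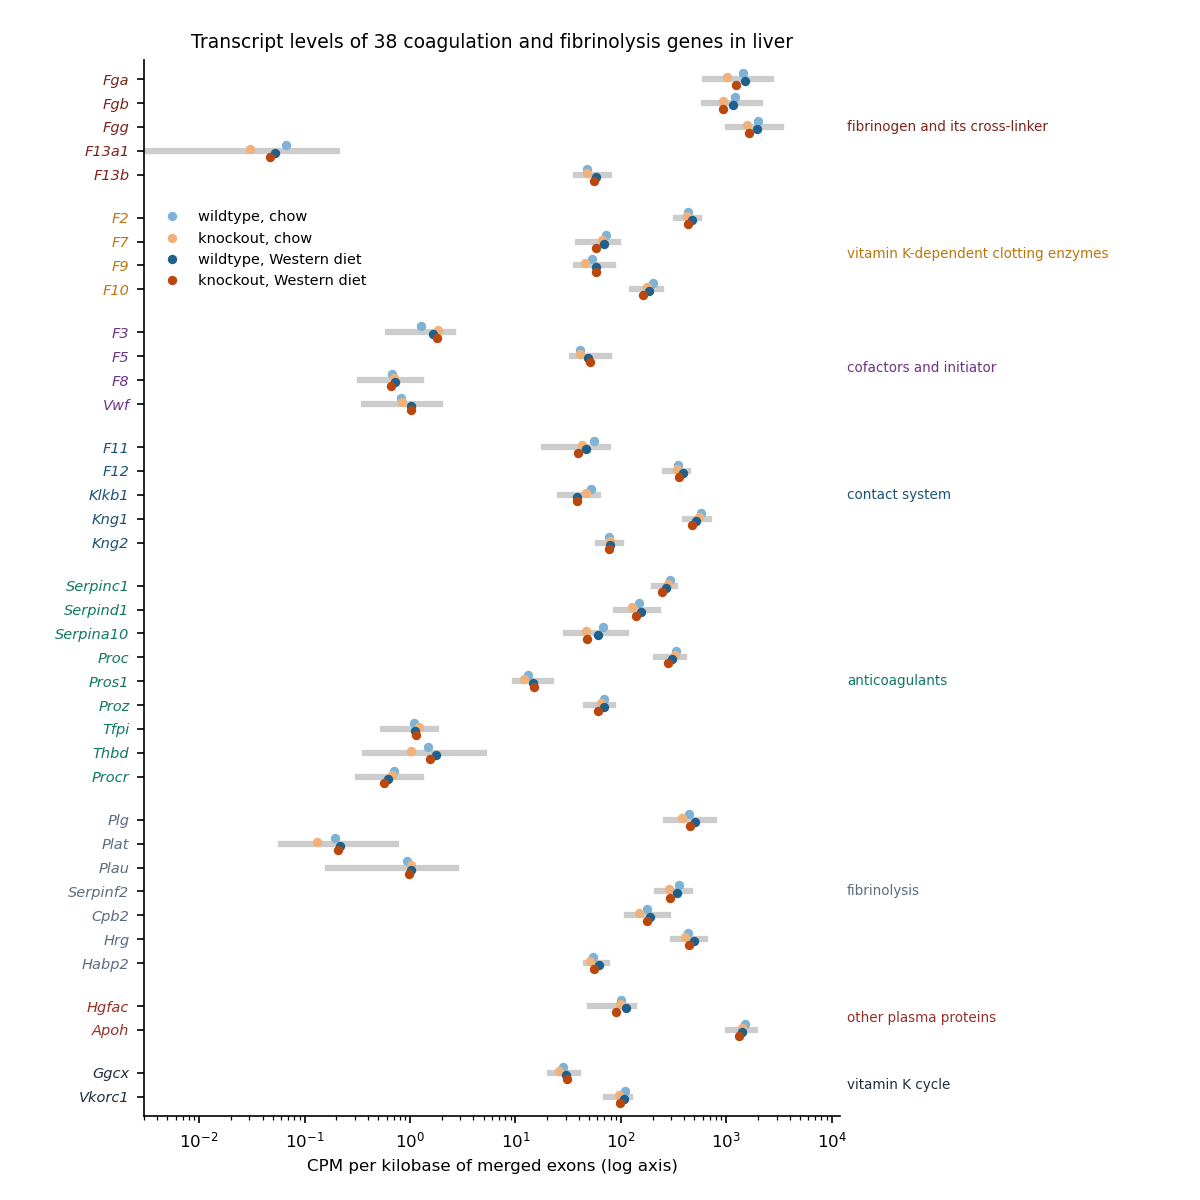
Level of each member in CPM per kilobase of merged exons (log axis), by role. Points are group means, with the group sizes given in the text, and grey bars span the lowest to the highest of 39 libraries. F13a1, at 0 in 4 libraries, has its bar drawn to the left edge. Fgg, Apoh, Fga and Fgb are at 1059 or more and 9 members at 1.69 or less.

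The first comparison asks what the loss of CD163 does to these genes under Western diet. No member passed, and the differences were small and mostly in 1 direction: 32 of 38 members had a negative log2 fold change in knockout mice, with a median of -0.12. Over all 15296 tested genes 46.5% were negative and the median was 0.0091. Without wildtype Western diet H 27 members were negative. With library number as a covariate 28 were negative, with a median of -0.084. In edgeR's quasi-likelihood test with Benjamini-Hochberg adjustment over all genes, 0 of 38 members were called at 0.05, against 0.00654% of all genes (Cd163 alone). At an unadjusted p under 0.05 there were 11 of 38 members, against 5.08% of all genes. Members share their libraries and several varied together, so these counts, here and on chow, are not of separate observations. DESeq2 and limma voom also called 0 members in the 39 libraries. Without the 4 libraries the counts were 0 called (background 0.00647%), 32 negative and 16 at an unadjusted p under 0.05 (6.09% of all genes), with a median of -0.13. Over all genes 47.5% were negative there. In a bulk liver sample, fewer cells of a type and less RNA per cell cannot be told apart.

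Hgfac had the smallest p of the members. It encodes the hepatocyte growth factor activator, a serine protease related to factor XII. It ranged from 310 to 454 CPM with a median of 377 in wildtype and from 173 to 433.95 CPM with a median of 312 in knockout mice. In 7 of 15 knockout libraries it was below all wildtype libraries, in 14 of 15 it was below the wildtype mean, and the groups overlapped. On the log2 scale this gave -0.31 (SE 0.09, adjusted p = 0.943). Over 35 libraries it was -0.34 (SE 0.08, adjusted p = 0.352), and DESeq2 called it there with an adjusted p of 0.0426.

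Among the clotting enzymes, F10 and F7, neighbours in the genome, came next. F10, factor X, ran from 417.7 to 660 CPM (median 489) in wildtype and from 347 to 526 CPM (median 445) in knockout mice. Knockout mice differed by -0.21 on the log2 scale (SE 0.07, adjusted p = 0.943), with 13 of 15 knockout libraries under the wildtype mean. F7, factor VII, ran from 96.0 to 175 CPM (median 125) in wildtype and from 72.3 to 139 CPM (median 104) in knockout mice, with a log2 fold change of -0.25 (SE 0.09, adjusted p = 0.943). Both genes overlapped widely between genotypes, and 4 knockout libraries lay below every wildtype library in each. F2 (log2 fold change -0.12) was also negative and F9 was at 0.0033.

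The fibrinogen group was negative in 5 of 5 members, with a median of -0.25. Fga ran from 2560 to 8022 CPM (median 3789) in wildtype and from 2348 to 6393 CPM (median 3467) in knockout mice. The medians lay close together, and the wildtype excess sat in libraries G, L and M, at 8022, 7976 and 7708 CPM, above every knockout library. The log2 fold change of Fga was -0.29 (SE 0.16, adjusted p = 0.943), that of Fgb -0.30 (SE 0.14) and that of Fgg -0.25 (SE 0.14). Serpina10, the inhibitor of factor X that works with protein Z, had the lowest value of all members, -0.37 (SE 0.18, adjusted p = 0.943). It ran from 115 to 395 CPM (median 176) in wildtype and from 110 to 320 CPM (median 158) in knockout mice, and wildtype G, L and M were again the highest, at 387, 390 and 395 CPM.

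By role, the fibrinolysis genes were negative in 7 of 7 members (median -0.14), the contact system in 5 of 5 (median -0.12) and the anticoagulants in 7 of 9 (median -0.12). Serpinf2, the plasmin inhibitor alpha-2-antiplasmin, was at -0.20 (SE 0.09) and Plg at -0.15 (SE 0.12). The cofactors and the initiator were split, with 2 of 4 negative. F3 had the highest log2 fold change, 0.12 (SE 0.14), followed by F5, the cofactor of factor X, at 0.07 (SE 0.09). In the vitamin K cycle, Vkorc1, the epoxide reductase, was at -0.13 (SE 0.06) and Ggcx, the carboxylase, at 0.03 (SE 0.07). Other gene lists had values in 1 direction as well, with none of their genes called. Of the acute phase genes 14 of 14 were negative in knockout mice (median -1.07, 0 called), with summed levels of 4780 to 44061 CPM in wildtype and 4895 to 17888 CPM in knockout mice. Likewise 8 of 8 sinusoidal endothelial markers were negative (median -0.20, 0 called), with summed levels of 180 to 457 and 160 to 481 CPM, and 6 of 6 Kupffer cell markers were positive (median 0.22, 0 called), with 64.8 to 367 and 101 to 432.8 CPM. Their part in the values of the members was not tested.

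**Figure D2:**
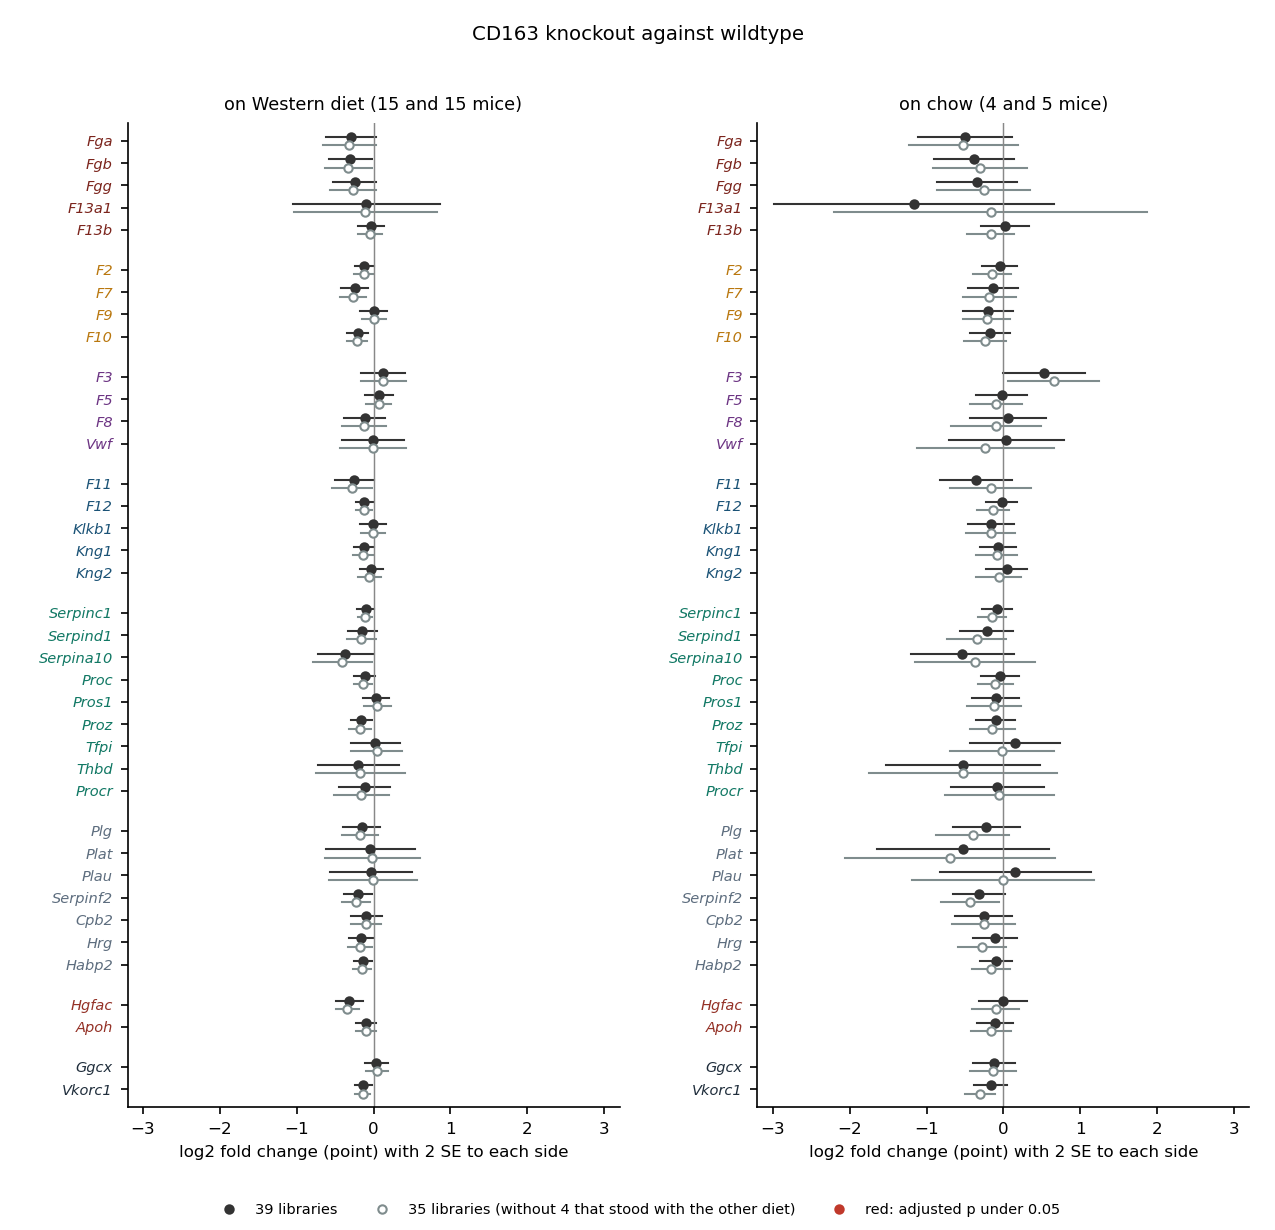
Log2 fold change of knockout against wildtype for each member, with 2 SE to each side, on Western diet (left) and chow (right), in 39 libraries (filled) and 35 libraries (open). No member passed an adjusted p of 0.05. On Western diet 32 of 38 points lie left of 0, with Serpina10 at -0.37 the lowest and F3 at 0.12 the highest in 39 libraries.

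On chow the same question was asked of 4 knockout and 5 wildtype mice. Again no member passed. In the edgeR test 0 of 38 members were called (background 0.00654%) and 0 had an unadjusted p under 0.05 (2.74% of all genes). Of the 38, 31 were negative, with a median of -0.11, against 49.1% and 0.0036 over all genes. Without wildtype chow E 25 were negative and the median was -0.061. DESeq2 and limma voom called 0 members too. Over 35 libraries 0 were called (background 0.00647%), 3 had an unadjusted p under 0.05 (5.36% of all genes), and 37 of 38 were negative, with a median of -0.17. Over all genes 54.0% were negative there, with a median of -0.021. Leaving wildtype chow E out of these 35 gave 30 negative members and a median of -0.13. With library number as a covariate 30 were negative in the 35 libraries, with a median of -0.20.

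F3 was the 1 member whose libraries did not overlap between genotypes on chow, a property of 0.660% of all tested genes. It was at 4.35, 3.70, 1.57, 3.38 and 3.09 CPM in wildtype A to E and at 4.40, 4.89, 4.92 and 4.42 CPM in knockout A to D. All 4 knockout libraries were above all wildtype libraries, the nearest of them by little. Its difference was 0.53 (SE 0.27, adjusted p = 1.00). These values rest on 19 to 82 counts per library.

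Over 35 libraries the same held for 5 members, against 4.86% of all genes: F3 was higher, and F9, F10, Serpinc1 and Vkorc1 were lower in knockout mice. Vkorc1 was at 97.7, 99.0, 99.9 and 99.6 CPM in wildtype B to E and at 83.8, 73.2 and 88.0 CPM in knockout A to C. The wildtype values were nearly equal and all knockout values lay below them. The difference on the log2 scale was -0.31 (SE 0.10, adjusted p = 0.91). Wildtype A, among the 4 libraries left out, was at 60.4 CPM, so that with all 39 libraries the groups overlapped and the value was -0.17 (SE 0.11).

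Serpinf2 was at 617, 930, 754, 771 and 1058 CPM in wildtype A to E and at 769, 555, 665 and 663 CPM in knockout A to D. Wildtype A was again among the low libraries, and the log2 fold change was -0.32 (SE 0.17, adjusted p = 1.00), or -0.43 (SE 0.19) in the 35 libraries. Fga was at 4837, 4305, 4083, 3026 and 5431 CPM in wildtype and at 3634, 1908, 3411 and 3339 CPM in knockout mice. Only wildtype D fell into the knockout range, and the log2 fold change was -0.50 (SE 0.30, adjusted p = 1.00). The lowest values were those of F13a1, -1.17 (SE 0.91), at 0 to 18 counts and -0.16 (SE 1.02) without the 4 libraries, and Serpina10, -0.54 (SE 0.33), and the second highest was that of Plau, urokinase, 0.16 (SE 0.49). The acute phase genes were negative in 14 of 14 members here as well (median -1.61, 0 called). Wildtype A and E had mean log2 CPM values of 8.48 and 8.61, while 7 other chow libraries had 5.51 to 6.00, and their part in these differences was not tested.

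The diet comparisons ask what 8 weeks of Western diet do in each genotype. In wildtype mice 1 of 38 members was called, Klkb1, which fell, against 1.39% of all genes. Without the 4 libraries 2 of 38 were called, Klkb1 and Serpinc1, and both fell, against 8.66% of all genes (4.26% higher and 4.40% lower). In knockout mice 0 of 38 were called in 39 libraries, against 0.00654% of all genes, and 7 members (18.4%) had an unadjusted p under 0.05, against 19.2% of all genes. DESeq2 called 0 members there and limma voom 1. In the 35 libraries 6 of 38 were called, against 17.2% of all genes (9.69% higher and 7.50% lower): F9, F13b, F5 and Ggcx rose, and Proc and Klkb1 fell. In the 35 libraries the shares of members lay near those of all genes, and a difference between them was not tested. The 4 libraries were picked by their expression of diet genes and not by a label, which favours differences between diets in the 35, so those diet calls are not independent evidence. The same choice favours groups that do not overlap between diets. The share of all genes without overlap between diets was not computed, so such cases below only describe the values. The comparison of genotypes on chow and both diet comparisons share their chow libraries, so values of the same member are not independent between them.

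Klkb1 (ENSMUSG00000109764) encodes plasma prekallikrein, the protease of the contact system that frees bradykinin from kininogen. It was at 219, 274, 254, 317 and 296 CPM in wildtype chow A to E and ran from 139 to 253 CPM, with a median of 218, in wildtype Western diet libraries. The 15 Western diet libraries all lay under the chow mean, and 10 of them under every chow library. It fell by 0.43 on the log2 scale (SE 0.11, adjusted p = 0.0466). Without the 4 libraries, the chow range of 254 to 317 CPM and the Western diet range of 139 to 227 CPM did not overlap, and Klkb1 fell by 0.53 (SE 0.11, adjusted p = 0.00286). In knockout mice it was at 246, 265, 267 and 195 CPM on chow A to D and at 145 to 248 CPM (median 202) on Western diet. Knockout chow D, at 195 CPM, lay inside the Western diet range, and the log2 fold change of -0.28 (SE 0.13, adjusted p = 0.217) did not pass. Without the 4 libraries the groups did not overlap, and Klkb1 fell by 0.37 (SE 0.13, adjusted p = 0.0413). The call in 39 libraries was lost in 26 of 39 fits that leave out 1 library each. In the 35 libraries the wildtype call was kept in 35 of 35 such fits, and the knockout call in 29 of 35. That knockout call was also lost with limma voom (adjusted p = 0.0701), with no filter on low counts (edgeR adjusted p = 0.0577) and with library number as a covariate (edgeR adjusted p = 0.0754).

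The other contact genes did not pass in either genotype. F12, factor XII, was at 518, 719, 722, 672 and 768 CPM in wildtype chow A to E and at 683 to 859 CPM (median 743) on Western diet. Only wildtype chow A was far below the others, and the log2 fold change of 0.17 (SE 0.08, adjusted p = 0.264) became 0.09 (SE 0.08) without the 4 libraries. F11 was at -0.23 (SE 0.18) in wildtype and -0.13 (SE 0.19) in knockout mice, and Kng1 at -0.14 (SE 0.09) and -0.20 (SE 0.10).

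Serpinc1 (ENSMUSG00000026715) encodes antithrombin, the main inhibitor of thrombin and factor X. In wildtype mice it was at 1975, 2803, 2573, 2673 and 2582 CPM on chow A to E and ran from 2011 to 2584 CPM (median 2254) on Western diet. Wildtype chow A lay below all Western diet libraries and the other 4 chow libraries above nearly all of them. Its log2 value was -0.15 (SE 0.07, adjusted p = 0.291) in 39 libraries, and in 35 libraries Serpinc1 fell by 0.24 (SE 0.07, adjusted p = 0.0240), with 13 of 14 Western diet libraries under every chow library. In knockout mice it was at 2490, 2283, 2529 and 2206 CPM on chow and 1776 to 2482 CPM (median 2119) on Western diet. That made -0.17 (SE 0.08, adjusted p = 0.246), and in 35 libraries, where the groups did not overlap, -0.19 (SE 0.08, adjusted p = 0.0688), which did not pass. The wildtype call was lost without wildtype chow B, C or D.

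Proc (ENSMUSG00000024386) encodes protein C, whose active form cuts factors V and VIII. In knockout mice it was at 876, 838, 829 and 691 CPM on chow A to D and ran from 529 to 901 CPM (median 704) on Western diet. Knockout chow D was the lowest chow library and knockout Western diet M, at 901 CPM, the highest of its group, and both are among the 4 libraries. The diet difference was -0.21 (SE 0.10, adjusted p = 0.260). Without them Proc fell by 0.28 (SE 0.09, adjusted p = 0.0343), with 13 of 14 Western diet libraries below the chow range of 829 to 876 CPM. In wildtype mice the value was -0.14 (SE 0.10, adjusted p = 0.474), and -0.25 (SE 0.08, adjusted p = 0.0539) in the 35 libraries, close to the threshold. The knockout call was lost without knockout chow A, B or C. Pros1, protein S, the cofactor of protein C, had a positive value in knockout mice, 0.32 (SE 0.13, adjusted p = 0.194). It was at 49.7, 43.4, 53.3 and 52.8 CPM on chow and 47.7 to 88.5 CPM (median 61.3) on Western diet, and 13 of 15 Western diet libraries were above the chow mean.

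F9 (ENSMUSG00000031138) encodes factor IX, the enzyme that activates factor X. In knockout mice it was at 114, 117, 121 and 152 CPM on chow A to D and ran from 104 to 230 CPM (median 154) on Western diet. Knockout chow D was the highest chow library and knockout Western diet M the lowest of its group. The diet difference was 0.34 (SE 0.14, adjusted p = 0.182). Without the 4 libraries the chow range of 114 to 121 CPM lay below the Western diet range of 126 to 230 CPM, and F9 rose by 0.51 (SE 0.13, adjusted p = 0.00861). In wildtype mice F9 was at 187, 133, 126, 127 and 150 CPM on chow and 115 to 223 CPM (median 152) on Western diet. The groups overlapped, with a log2 fold change of 0.14 (SE 0.13, adjusted p = 0.595), or 0.28 (SE 0.12, adjusted p = 0.122) in the 35 libraries. The knockout call was lost without knockout chow B.

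F5 (ENSMUSG00000026579) encodes factor V, the cofactor of factor X. In knockout mice it was at 298, 255, 292 and 364 CPM on chow and ran from 268 to 576 CPM (median 360) on Western diet. Chow D lay in the middle of the Western diet libraries and the other 3 chow libraries at their lower end. A log2 difference of 0.33 (SE 0.14, adjusted p = 0.201) did not pass, and without the 4 libraries F5 rose by 0.49 (SE 0.15, adjusted p = 0.0184), with 13 of 14 libraries above every chow library. In wildtype mice it was at 355, 295, 256, 288 and 342 CPM on chow and 253 to 485 CPM (median 355) on Western diet, with 0.24 (SE 0.13, adjusted p = 0.331) in 39 and 0.33 (SE 0.13, adjusted p = 0.0972) in 35 libraries. Factor XIII consists of A subunits and of the carrier B subunit, which F13b (ENSMUSG00000026368) encodes. F13b was at 114, 102, 105 and 168 CPM in knockout chow A to D and at 106 to 194 CPM (median 137) on Western diet. Chow D stood alone, above most Western diet libraries, and the log2 fold change of 0.22 (SE 0.13, adjusted p = 0.351) became a rise of 0.45 (SE 0.13, adjusted p = 0.0180) without the 4 libraries. In wildtype mice F13b was at 128, 130, 94.3, 124 and 124 CPM on chow and 105 to 190 CPM (median 148) on Western diet, with 0.28 (SE 0.12, adjusted p = 0.226) in 39 and 0.33 (SE 0.12, adjusted p = 0.0691) in 35 libraries. The calls of F5 and F13b were each lost without knockout chow B or C.

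Ggcx (ENSMUSG00000053460) encodes the carboxylase that modifies the vitamin K-dependent factors. It was at 68.9, 93.5, 79.8 and 91.8 CPM in knockout chow A to D and at 77.5 to 127 CPM (median 98.6) on Western diet. The groups overlapped, with 11 of 15 Western diet libraries above every chow library. A log2 difference of 0.26 (SE 0.12, adjusted p = 0.214) did not pass, and without the 4 libraries Ggcx rose by 0.36 (SE 0.13, adjusted p = 0.0475), a call that held in 10 of 35 fits without 1 library. Other settings ended calls in the 35 libraries too. Fitting the compared groups alone gave edgeR adjusted p of 0.0525 for F5, 0.0521 for F13b, 0.0995 for Proc and 0.0753 for Ggcx in knockout mice. With no filter they were 0.0593 for Proc and 0.1197 for Ggcx in knockout and 0.0873 for Serpinc1 in wildtype mice. Ggcx was also lost with RLE scaling (0.0518), the replicate block (0.0600) and wildtype L and M summed (0.0583). In wildtype mice the values were 0.10 (SE 0.10) and 0.18 (SE 0.11). Vkorc1 was at -0.02 (SE 0.08) in wildtype and 0.02 (SE 0.09) in knockout mice.

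**Figure D3:**
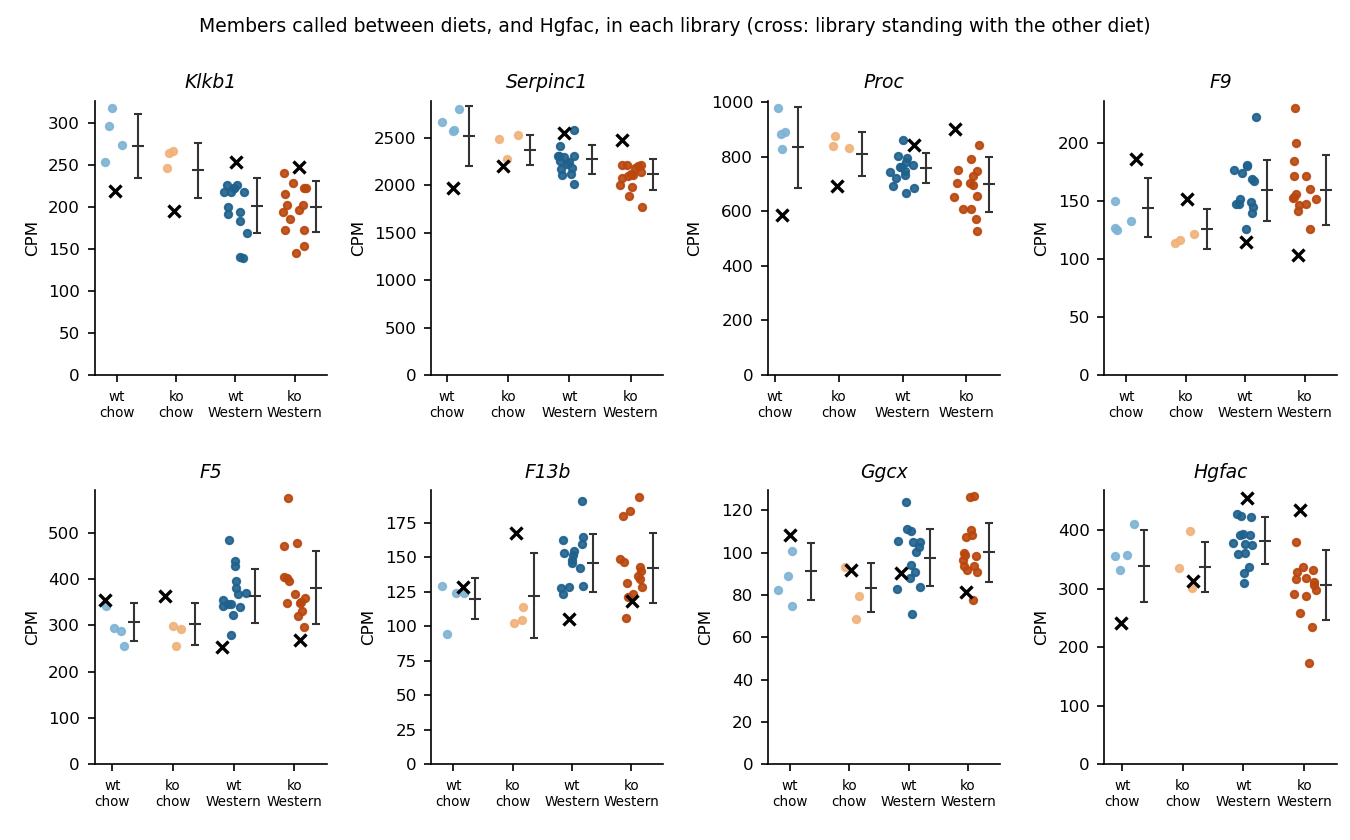
CPM of the 7 members called between diets, and of Hgfac, in each library by group (linear axis from 0). Bars give the mean and SD of each group over all its libraries, and crosses mark the 4 libraries that stand with the other diet. For F9, the crosses at 187 and 152 CPM are the highest chow libraries of their genotype, and those at 115 and 104 CPM the lowest on Western diet.

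The remaining members did not pass between diets in either genotype, with or without the 4 libraries. The fibrinogen chains lay near 0 in wildtype mice, with Fga at 0.06 (SE 0.23), Fgb at -0.07 (SE 0.20) and Fgg at -0.04 (SE 0.20). In knockout mice they were at 0.27 (SE 0.26), 0.0089 (SE 0.22) and 0.06 (SE 0.22). Among the scarce members the estimates were wide. F3 (0.38, SE 0.21) and Vwf (0.33, SE 0.29) had the highest values in wildtype mice and F13a1 (-0.39, SE 0.63) the second lowest, which became 0.50 (SE 0.73) without the 4 libraries. In knockout mice F13a1 (0.68, SE 0.81) and Plat (0.66, SE 0.48) were highest, and Procr, the endothelial protein C receptor (-0.23, SE 0.25), was second lowest after Klkb1. Sinusoidal endothelial markers were negative in 7 of 8 in knockout (median -0.44, 0 called) and 6 of 8 in wildtype mice (median -0.15, 0 called), and the summed level on chow was 296 to 400 CPM in wildtype and 336 to 434.4 CPM in knockout mice. Erythroid markers were positive in 5 of 5 in both genotypes (median 1.49 in wildtype and 3.15 in knockout mice). Whether these cells had a part in the values of the members was not tested.

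**Figure D4:**
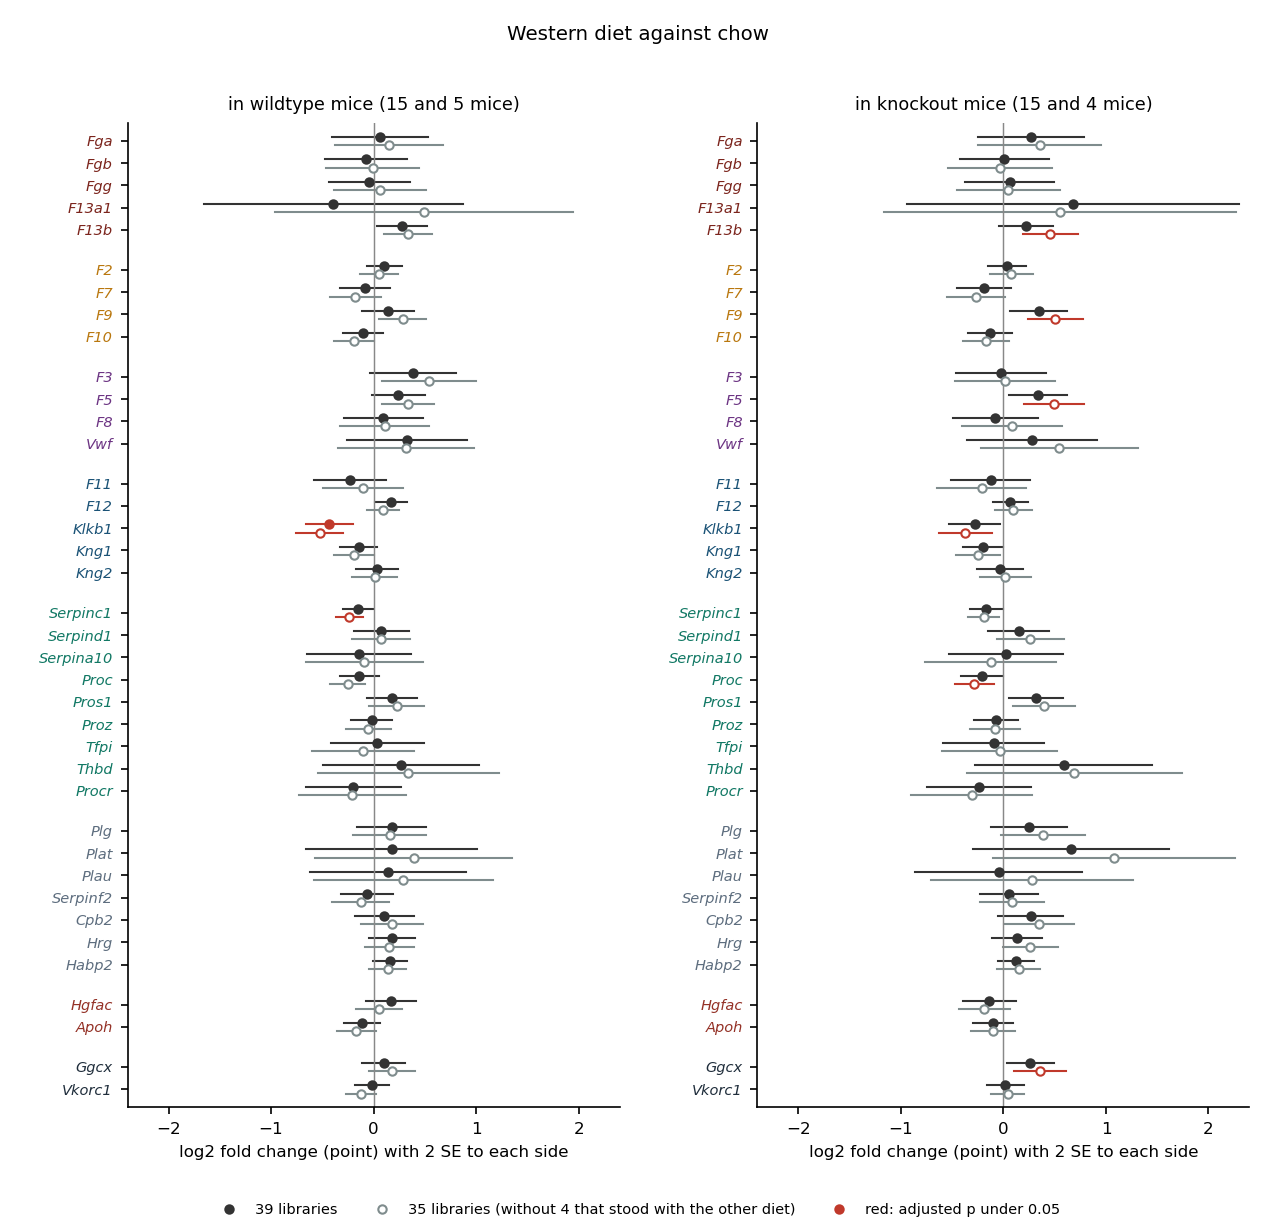
Log2 fold change of Western diet against chow for each member, with 2 SE to each side, in wildtype (left) and knockout mice (right), in 39 libraries (filled) and 35 libraries (open), with calls in red. Klkb1 is red in both fits in wildtype mice. The calls of Serpinc1 (wildtype) and of F9, F13b, F5, Ggcx, Proc and Klkb1 (knockout) stand in the 35 libraries alone.

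The interaction asks whether the response to diet differed between genotypes. In edgeR 0 members and 0% of all genes were called, in 39 as in 35 libraries (0% again), and 0 members had an unadjusted p under 0.05 in either. DESeq2 and limma voom called 0 members as well. The smallest p was that of Hgfac, whose diet value was 0.17 (SE 0.12) in wildtype and -0.14 (SE 0.13) in knockout mice, a difference of -0.31 (SE 0.18, adjusted p = 1.00). F3 had a difference of -0.41 (SE 0.30) and F9 of 0.20 (SE 0.19). The highest values were those of F13a1 (1.07, SE 1.03, and 0.06 without the 4 libraries) and Plat (0.48, SE 0.63). So the calls of F9, F5, F13b, Ggcx and Proc in knockout mice, and that of Serpinc1 in wildtype mice, are not shown to differ between genotypes. Without the 4 libraries the differences for these 6 genes were 0.22 (SE 0.17), 0.16 (SE 0.19), 0.12 (SE 0.17), 0.18 (SE 0.17), -0.03 (SE 0.13) and 0.04 (SE 0.10).

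The 3 fibrinogen chains, which are joined in equal numbers in the protein, varied together between mice of 1 group. Over the 15 knockout mice on Western diet, log2 CPM of Fga and Fgb had a Pearson r of 0.907 and a Spearman rho of 0.857, Fga and Fgg of 0.939 and 0.871, and Fgb and Fgg of 0.984 and 0.964. In the wildtype group G, L and M formed a separate cluster in Fgb and in Fgg, so the relations are given over the other 12 mice. There Fga and Fgb had an r of 0.883 (rho 0.762), Fga and Fgg of 0.923 (rho 0.832) and Fgb and Fgg of 0.948 (rho 0.860). The permutation p of r was 1e-05 in the 3 knockout relations, the smallest that 100000 resamples can give, and 5e-05 to 8e-05 in the 3 wildtype relations. After Benjamini-Hochberg adjustment over the 6 relations these were 2e-05 and 7.2e-05 to 8e-05, and the adjusted permutation p of rho ran from 6e-05 to 0.00523. Without the 2 mice farthest from the median of the first gene, r was 0.843, 0.886 and 0.978 in knockout and 0.686, 0.794 and 0.940 in wildtype mice, in the order Fga and Fgb, Fga and Fgg, Fgb and Fgg. These levels share a library and its scaling.

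The highest fibrinogen levels stood in mice with high acute phase genes, a list of 14 that holds no member and includes serum amyloid A and orosomucoid genes. Their mean log2 CPM split the wildtype Western diet mice into 10 at 5.36 to 7.18 and 5, namely F, G, L, M and N, at 8.52 to 10.1. In these 5 Fga was at 5811, 8022, 7976, 7708 and 3066 CPM, so 4 of them held the highest wildtype values and N was among the low ones. In the knockout mice E stood apart, at 8.75 against 5.51 to 7.23 in the other 14, and had the highest Fga level of its group, 6393 CPM. A relation over all mice of a group is not given, since the groups fall into clusters. Within the lower clusters 0 of 38 members had a relation of r with the acute phase mean that passed Benjamini-Hochberg adjustment over the 76 relations, and 32 of 38 had a positive r in the 10 wildtype and 24 of 38 in the 14 knockout mice. The smallest adjusted permutation p of r was 0.061, reached by Serpinc1 (r = -0.713, rho = -0.754) and Apoh (r = -0.715, rho = -0.846) in knockout mice and by Pros1 (r = 0.839, rho = 0.830) and F2 (r = 0.821, rho = 0.685) in wildtype mice. For rho, Apoh had an adjusted permutation p of 0.0236. Without the 2 farthest mice r was -0.752, -0.739, 0.731 and 0.727 for these 4.

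**Figure D5:**
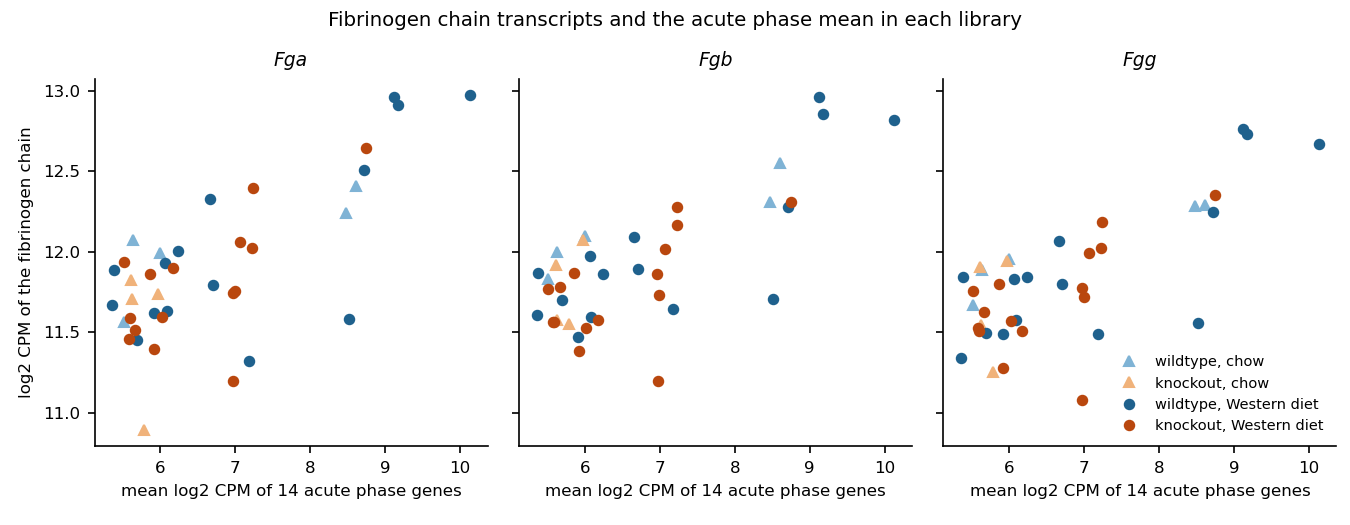
Log2 CPM of Fga, Fgb and Fgg against the mean log2 CPM of 14 acute phase genes, 1 point per library, by group. The 3 highest points of each panel are wildtype Western diet G, L and M, with acute phase means of 10.1, 9.12 and 9.17. Wildtype Western diet N, at 8.52, lies low in all 3 panels.

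Of 35 other genes of clotting, fibrinolysis and the processing of clotting factors, 31 were tested. Between genotypes 0 were called on either diet, with 3 at an unadjusted p under 0.05 on Western diet and 2 on chow, and 0 in the interaction, with 1 at an unadjusted p under 0.05. Among the smallest p on Western diet were those of Mmrn1, Anxa2 and Thbs1, with log2 fold changes of 1.06, 0.55 and 0.52. On chow Mcfd2 was at -0.29, Thbs1 at -1.19, Tgm2 at -0.38 and Fgl1 at -1.11. In the interaction Thbs1 was at 1.70, Mmrn1 at 1.42, Mcfd2 at 0.21 and Serpina5 at 1.47. Between diets 0 were called in 39 libraries in either genotype, against 1.39% of all genes in wildtype and 0.00654% in knockout mice. In each genotype 9 had an unadjusted p under 0.05, and the share of all genes in knockout mice is given above. The smallest p belonged to Serpine2 (1.13), F2r (0.55), Thbs1 (-1.03) and C4bp (0.34) in wildtype mice and to Mcfd2 (0.33), C4bp (0.45), Anxa2 (1.24) and Vkorc1l1 (0.38) in knockout mice. In the 35 libraries 6 rose in wildtype mice, where 4.26% of all genes were called higher, and 8 in knockout mice, where 9.69% were. In both genotypes 0 fell, against 4.40% and 7.50% of all genes. A difference between these shares was not tested. The 4 libraries were left out by their expression of diet genes, so these calls are not independent evidence. F2r, the thrombin receptor, rose by 0.76 (SE 0.16, adjusted p = 0.00239) in wildtype and by 0.91 (SE 0.18, adjusted p = 0.00122) in knockout mice, from 29.4 ± 7.63 to 49.7 ± 6.95 CPM and from 25.8 ± 6.55 to 47.5 ± 9.91 CPM. Anxa2 and S100a10, which together form a cell surface receptor for plasminogen, rose by 1.21 and 0.50 in wildtype and by 1.70 and 0.50 in knockout mice. C4bp, the alpha chain of a plasma protein that binds complement C4b, rose by 0.51 and 0.56, and Vkorc1l1, a relative of Vkorc1, by 0.39 and 0.48. Serpine2, protease nexin 1, was called in wildtype mice (1.55, SE 0.38). In knockout mice Mcfd2 and Lman1, the receptor pair that carries factors V and VIII out of the endoplasmic reticulum, rose by 0.42 and 0.49, and Furin, a protease that cuts proproteins, by 0.46. These values, like the calls of the members in the 35 libraries, compare 4 wildtype or 3 knockout chow mice with 14 mice on Western diet.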

How the data were processed

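RNA from snap-frozen liver was prepared with a NEBNext Ultra RNA kit for paired-end NovaSeq sequencing, per the labels' protocols. The authors deposited 1 table of raw read counts per gene. Reads were aligned with STAR 2.7.8a to GRCm39 and counted with featureCounts 2.0, per the submitters' processing notes; the annotation release and strand setting are not given in the sources used here, so overlapping and antisense genes cannot be told apart. Total counts per library, 8578865 to 30438808, limit the precision for genes with few counts.

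Counts were scaled by TMM and tested with edgeR 4.0.16 (R 4.3.3) by the quasi-likelihood F test, with 1 term for each of the 4 groups and no replicate block. Genes passed filterByExpr (minimum count 10, minimum total 15), which left 15296 genes in 39 libraries and 15461 in the 35 without the 4 that stand with the other diet. Benjamini-Hochberg adjustment ran over all of these genes at 0.05. Log2 CPM used a prior count of 2. The scripts were tested on simulated data. Other settings tried were DESeq2 1.42.0, voom with quality weights (limma 3.58.1), RLE scaling, no filter, a replicate block, the library number as a term, a fit of just the compared groups, the closest pair summed, and each library left out. Exon lengths came from a GRCm38 annotation. Correlations used permutation tests in scipy 1.17.1.

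Named were all members called in any comparison, and in each the 3 with the smallest p and the 2 highest and 2 lowest fold changes, with called genes and the 4 smallest p of the other pathway genes; 1 result under this rule is not reported here. Members, lists and the 4 libraries were chosen with earlier results of these data known. One library stands for 1 mouse.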

Additional observations from a re-analysis of the deposited data

Results flagged for a closer look

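In 76 groups of 4 or 5 chow libraries, 1 for each member and genotype, 6 members had a library far from the others of its group by Dixon's criterion at 95%, which chance meets in about 1 in 20 groups. The groups share the same chow libraries and are not separate draws, so 6 of 76 cannot be set against that rate. All 6 were in wildtype chow mice, and 4 were in library A, which stood with the other diet. There F10 was at 403.8 CPM, Serpinc1 at 1975 CPM and Vkorc1 at 60.4 CPM, all below the other 4 libraries, and Plat at 1.88 CPM was above them. F13b was low in library C, at 94.3 CPM. Vwf was high in library E, at 19.2 CPM.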

How the results depend on the processing

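In both genotype comparisons and the interaction 0 members were called under every alternative run, with 1 exception: without the 4 libraries that stand with the other diet, DESeq2 called 1 (Hgfac) on Western diet. The diet comparison in wildtype mice, with 1 member called, gave 2 with limma voom, 2 without the 4 libraries, and 0 with no filter, with the replicate block, with library number as a covariate, or with wildtype Western diet L and M summed. Leaving out 1 library gave 0 to 1. In knockout mice, with 0 called, limma voom gave 1 and leaving out the 4 libraries 6, and leaving out 1 library gave 0 to 0. Within the 35 libraries, the wildtype count of 2 became 5 with limma voom, 1 with no filter, 6 with the replicate block, 6 with library number and 4 with only the groups compared, and leaving out 1 library gave 1 to 3. The knockout count of 6 became 3 with no filter and 2 with only the groups compared, and leaving out 1 library gave 0 to 7. The cause was not tested. Over all genes, leaving out the 4 libraries moved the calls from 212 to 1339 in wildtype and from 1 to 2657 in knockout mice. Libraries with the same letter are not shown to be pairs: over 15 letters the mean correlation of wildtype and knockout deviations was -0.0104, and 2 of the 15 correlated best with their own letter. The fibrinogen correlations kept their call under the alternatives run. Splitting the mice by either gene of a pair, as printed, was added after seeing the data, and without that split r of Fga over 15 wildtype mice was 0.962 with Fgb and 0.976 with Fgg. Single members were followed only where they were called or had 1 of the 3 smallest p of a comparison. Of their values, 2059 kept their direction and side of the threshold, 85 lost and 39 gained the call, and 0 reversed. That absence of reversals rests on the choice of members. F13a1, not followed between diets in wildtype mice, changed its sign there without the 4 libraries. Alternatives that combine leaving out the 4 libraries with another choice were added after seeing the data.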
